A study of Danio rerio with 9 samples.

Results

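The subject is the set of called chromatin contacts that lie wholly within the long arm of zebrafish chromosome 4. A member is a called pair of 10 kb bins on chromosome 4 with both bins starting at or beyond 28000000 in the build danRer11. By this rule the long arm held 180 pairs at 0 days post amputation (dpa), 139 at 1 dpa and 157 at 4 dpa, of 28421, 18712 and 26988 called pairs in all. The long arm therefore held 0.633%, 0.743% and 0.582% of the 3 lists. Over the 3 lists the members came to 234 distinct pairs of bins. Pairs with both bins before 28000000, called the short arm here, served as the comparison and numbered 875, 642 and 873. The long arm pair nearest the boundary began at 28140001 at 0 dpa, with 26 counts, and at 28150001 at 1 and 4 dpa, with 65 and 67 counts. The last short arm pair ended at 27420000, 27390000 and 27130000 at the 3 times, with 22, 31 and 53 counts, so the boundary fell in a stretch without called pairs.

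Contacts were measured by HiCAR, which tags open chromatin with the transposase Tn5 and ligates the tag to nearby DNA ends cut by CviQI, so that a sequenced molecule joins an open site to DNA close to it in the nucleus. The tissue was caudal fin of adult zebrafish, wild type and of the outbred Ekkwill strain, aged 6 to 8 months. All fins were cut at 50% of their length, and tissue was taken freshly cut (0 dpa, uninjured) or as regenerate at 1 or 4 dpa, with 10 fins to a pool and 3 pools to a time point. Each deposited list stands for a whole time point and gives no value per pool, so no comparison below has a test, and the spread between pools is unknown.

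Chromosome 4 of the zebrafish is unusual in that its long arm is largely heterochromatic, replicates late, and is rich in repeats, in 5S ribosomal RNA and other small RNA genes, and in large families of NOD-like receptor and zinc finger genes. NOD-like receptors are cytoplasmic sensors of innate immunity, and zinc finger proteins bind DNA. In some wild strains the end of this arm carries the sex-linked region. The short arm is ordinary gene-rich euchromatin. These features are background: the lists hold neither replication timing, repeats nor genes, and no sequence or annotation of danRer11 was used here.

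A list gives for each pair its contact count, the count expected under the authors' background model and a false discovery rate. All called pairs had at least 12 counts, an FDR under 0.01 and an observed count above 2.00 times the expected count. Pairs with no called neighbour all had an FDR under 0.0001. The stricter FDR limit of 0.0001 used later therefore took out only pairs with a called neighbour. Counts over the called long arm pairs summed to 6406, 4949 and 5373 at 0, 1 and 4 dpa. These sums move with how many pairs were called and are not a sequencing depth, which is unknown. Intervals below are at the 95% level. Those of a single pair cover the counting error of its contact counts alone. Those of medians, percents and numbers of pairs take called pairs as independent units, which neighbouring pairs are not. Called pairs are not replicates of a time point, and no interval covers the spread between pools.

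Called contacts were sparse per Mb of sequence on the long arm at all 3 times. The lists do not give how many bins of each arm could be mapped or held open sites. Whether the arms differ in this was not tested. The long arm had 3.59 pairs per Mb at 0 dpa, against 31.25 on the short arm and 21.1 over the series. At 1 dpa there were 2.78 pairs per Mb on the long arm, against 22.9 on the short arm and 13.9 over the series. At 4 dpa the values were 3.13 on the long arm, against 31.2 and 20.1. The long arm thus had 0.115, 0.121 and 0.101 times the pair density of the short arm at 0, 1 and 4 dpa (intervals 0.0974 to 0.135, 0.100 to 0.146 and 0.0843 to 0.119). With chromosome 4 split into its arms, 26 chromosomes and arms can be ranked. The long arm had the fewest pairs per Mb of the 26 at every time, while the short arm had the most. At 0 dpa the others ran from 16.9 on chromosome 14 to 31.25. Bins used as an anchor made up 4.11%, 3.53% and 3.91% of the long arm at 0, 1 and 4 dpa, against 28.3%, 22.8% and 28.2% of the short arm.

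**Figure D1:**
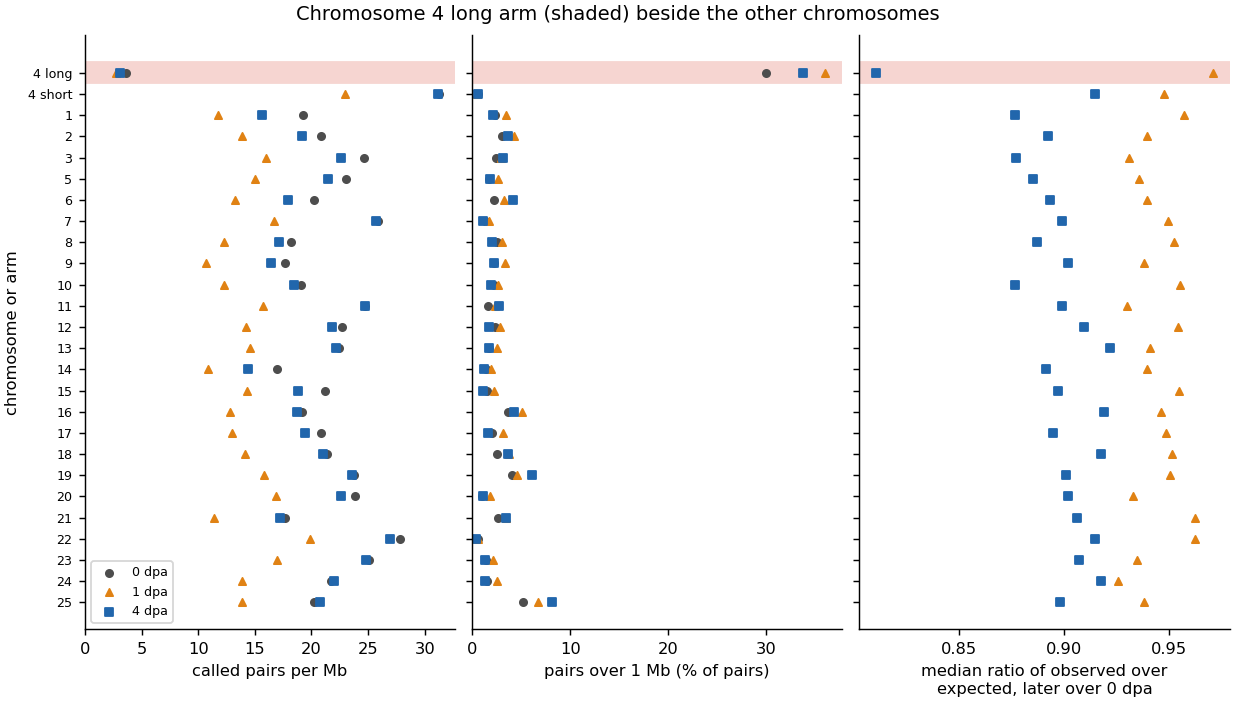
Chromosome 4 long arm (shaded row), short arm and the other 24 chromosomes at 0 dpa (circles), 1 dpa (triangles) and 4 dpa (squares), showing called pairs per Mb, the percent of pairs spanning over 1 Mb, and the median ratio of observed over expected counts of pairs kept in the same bins, later over 0 dpa. The long arm lies at the low end for pairs per Mb and at the high end for long spans at all times, and at the low end for the 4 over 0 dpa ratio.

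The called contacts were crowded at the ends of the arm. Of 51 windows of 1 Mb counted from the boundary (the last is shorter), 38, 36 and 34 held an anchor at 0, 1 and 4 dpa, while 13 held none at any time. The window with the most anchor bins was 76 to 77 Mb, with 29, 28 and 33 at the 3 times. The window next to the boundary, 28 to 29 Mb, had 27, 25 and 26. The longest stretch without an anchor at any time was chr4:41120001-47580000, 6.46 Mb long, and the next was chr4:30750001-33210000, 2.46 Mb long. On the short arm the longest such stretch was 0.56 Mb. Every long arm pair was put in 1 of 4 groups, drawn after these values were seen. Pairs within 28 to 29 Mb numbered 48, 28 and 28 at 0, 1 and 4 dpa. Pairs of at most 1 Mb between 29 and 72 Mb numbered 12, 10 and 10, those from 72 Mb on numbered 66, 51 and 66, and those spanning over 1 Mb numbered 54, 50 and 53.

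**Figure D2:**
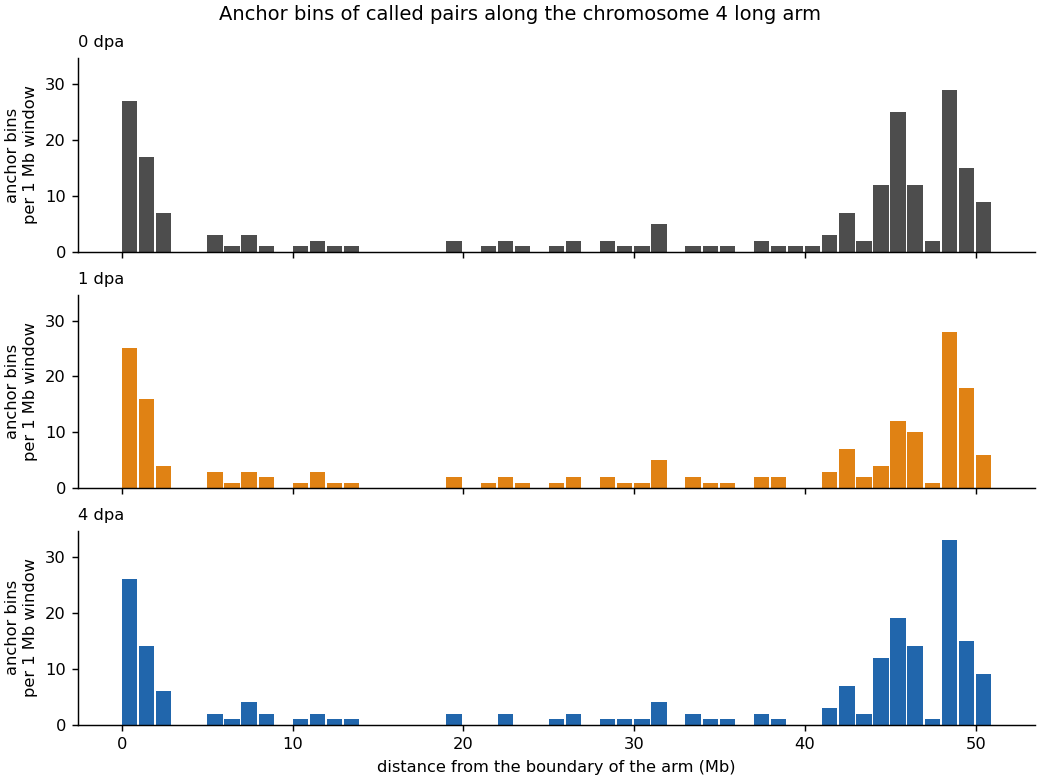
Number of 10 kb bins used as an anchor in each 1 Mb window of the chromosome 4 long arm, against the distance of the window from the arm boundary in Mb, at 0, 1 and 4 dpa from top to bottom. Anchors are dense next to the boundary and in the outermost windows, up to 33 per window, and few or absent between.

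A large share of the long arm contacts spanned very long distances. Of the long arm pairs, 54 (30% of 180) spanned over 1 Mb at 0 dpa, against 5 (0.571%) on the short arm and 2.28% over the series. At 1 dpa, 50 long arm pairs (36.0%) did, against 3 on the short arm (0.467%). At 4 dpa, 53 long arm pairs (33.8%) did, against 5 on the short arm (0.573%). The long arm ranked first of the 26 at each time, and the next highest was chromosome 25 with 5.15%, 6.72% and 8.11%. Per Mb of chromosome the long arm stood less apart, with 1.08 such pairs per Mb at 0 dpa, against 1.04 on chromosome 25. At 4 dpa it had 1.06 per Mb, against 1.68 on chromosome 25 and 1.43 on chromosome 19. The high percent on the long arm thus came with few short pairs: its pairs of at most 1 Mb numbered 126, 89 and 104, and the short arm had 12.4, 12.8 and 14.9 times as many per Mb. Over 5 Mb, the long arm had 47, 47 and 48 pairs, which were 12.8%, 13.7% and 14.3% of all such pairs in the series.

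Spans on the long arm fell into separate ranges. At most 50 kb was spanned by 86, 56 and 68 pairs at 0, 1 and 4 dpa, and over 50 up to 200 kb by 35, 29 and 32. Over 200 kb and up to 1 Mb there were only 5, 4 and 4 pairs, or 2.78%, 2.88% and 2.55%, against 8.11%, 9.66% and 12% on the short arm. The median span of all long arm pairs was 65, 90 and 80 kb. Among pairs of at most 1 Mb it was 30 kb at each time on the long arm, against 70, 80 and 90 kb on the short arm. Among pairs over 1 Mb the long arm median was 16.5, 17.2 and 12.3 Mb, and the longest pair spanned 47.29 Mb in all 3 lists.

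**Figure D3:**
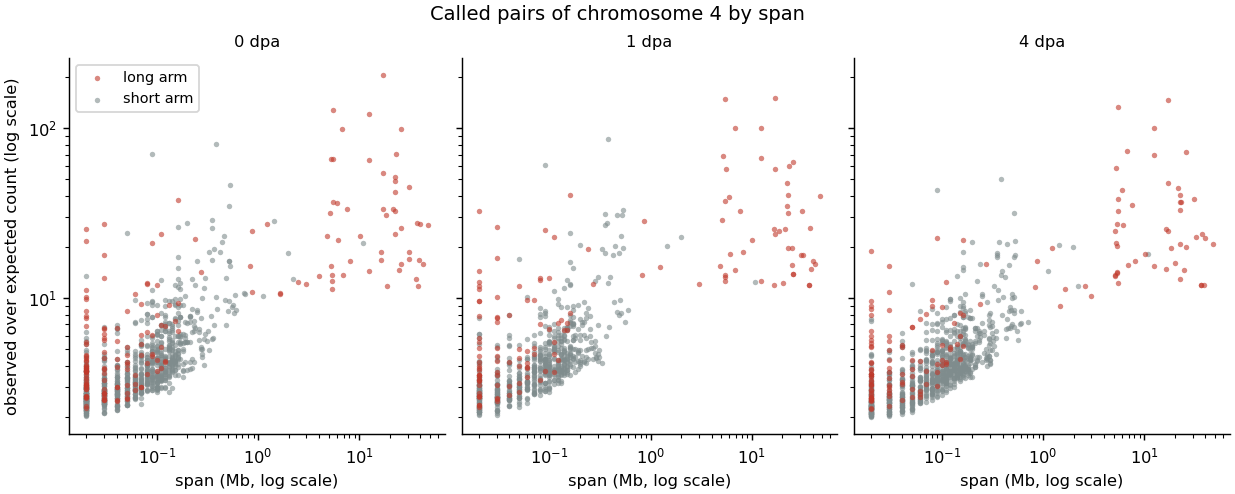
Observed over expected contact count against span in Mb (both axes log) for called pairs of the chromosome 4 long arm (red) and short arm (grey) at 0, 1 and 4 dpa; each point is a called pair. Long arm points form a group at short spans and another beyond 1 Mb, with few between, while 5, 3 and 5 short arm points lie beyond 1 Mb.

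The expected count of the long arm pairs over 1 Mb was between 1.00 and 1.34, so their observed over expected ratio nearly equals the count and is not comparable with that of nearer pairs. Their counts ran from 12, the lowest of any called pair, through medians of 25.5, 23.5 and 22 at 0, 1 and 4 dpa, to 208, 156 and 149. The pair with the highest count at 0 dpa joined chr4:54470001-54480000 to chr4:71620001-71630000, 17.15 Mb away. It had 208, 152 and 149 counts at 0, 1 and 4 dpa. Counts of 135, 156 and 140 joined chr4:70870001-70880000 to chr4:76310001-76320000, 5.44 Mb away, and counts of 123, 102 and 101 joined chr4:35240001-35250000 to chr4:47590001-47600000, 12.35 Mb away. These 3 pairs were chosen after their values were seen. Each was far above the limit of 12 counts in every list. Some long pairs sat near that limit and were not called in all lists.

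By the naming rule, the longest pair called in the same bins at all times joined chr4:28460001-28470000 to chr4:75750001-75760000, 47.29 Mb away, and had 27, 40 and 21 counts. The next, between chr4:33210001-33220000 and chr4:73170001-73180000, had 28, 17 and 23. Between chr4:30180001-30190000 and chr4:69070001-69080000 there were 17, 15 and 12 counts, and between chr4:40590001-40600000 and chr4:77910001-77920000 there were 28, 26 and 24. Each of the 4 was a singleton, a pair with no called neighbour, in every list. For these and the other pairs over 1 Mb, contact in the nucleus and a difference in the order of sequence between danRer11 and the Ekkwill genome cannot be told apart.

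**Figure D4:**
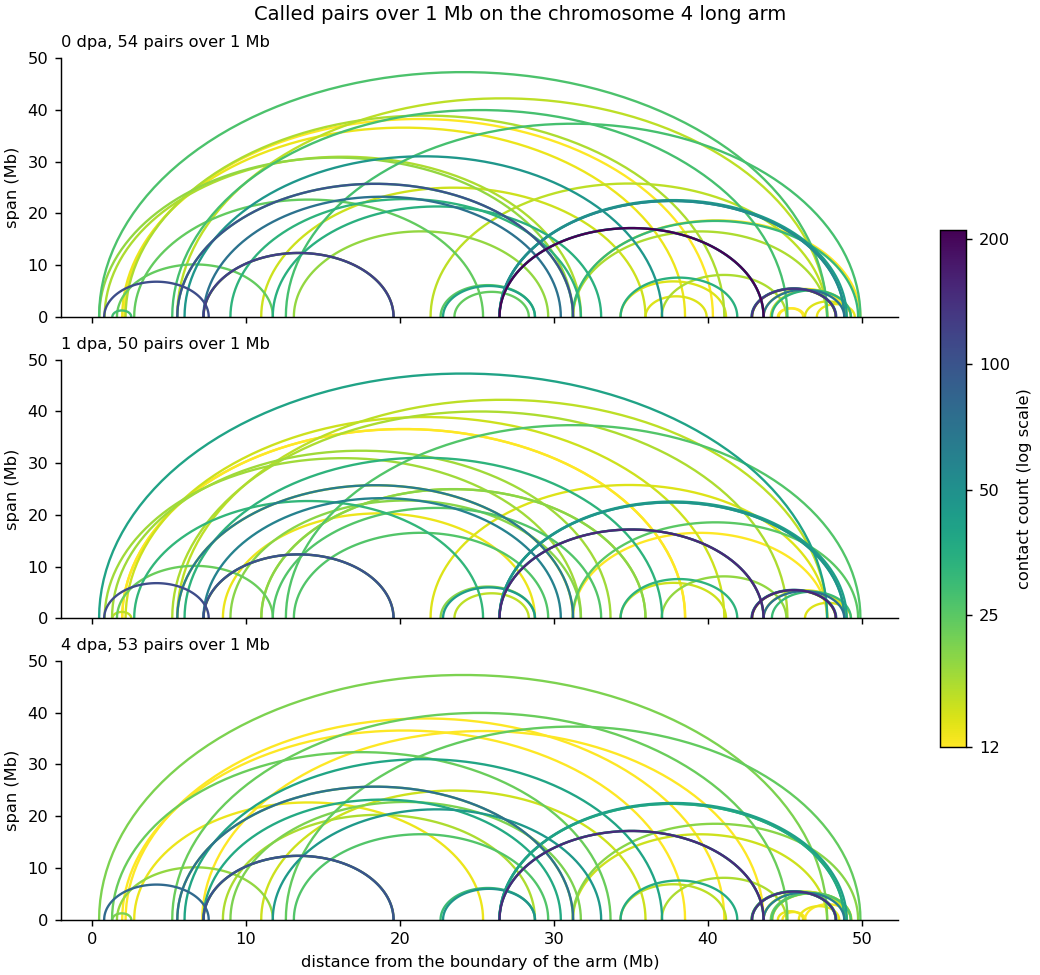
Called pairs spanning over 1 Mb on the chromosome 4 long arm at 0, 1 and 4 dpa, drawn as arcs between their anchors; the horizontal axis is the distance from the arm boundary in Mb, the height of an arc is its span in Mb, and colour gives the contact count on a log scale. There are 54, 50 and 53 arcs, and those with the highest counts, up to 208, recur at each time.

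Adjacent anchors of the pairs over 1 Mb were merged into 77 loci, joined by 52 links at any time. Most loci had a single partner: 60 of the 77 had 1, 17 had at least 2 and 6 had at least 3. The links formed 29 separate sets, of which 20 were a lone link between 2 loci and the largest joined 7 loci. Of the 52 links, 33 were called in all 3 lists, 8 in 2 lists and 11 in 1 list. Of the 77 loci, 15 (19.5%) lay at or next to an anchor of a pair of at most 1 Mb. The share of all long arm bins that lay so was not computed. Single anchor bins of any pair made up 4.11%, 3.53% and 3.91% of the long arm at 0, 1 and 4 dpa. These shares leave out neighbouring bins and the merging into loci, so they are no background for the 19.5%.

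In 4 cases 3 loci were joined pairwise, each to both others, by links called at any time. The triangle of the loci at 28460001, 59240001 and 75750001 was closed at 0 dpa only. Its locus at 28460001 had 2 partner loci at 0 dpa and 1 at each later time. The loci at chr4:54460001-54480000, chr4:71610001-71630000 and chr4:76860001-76880000 formed such a triangle at each time. Besides the pair of 208, 152 and 149 counts, its sides included a pair of 69, 72 and 61 counts between 71620001 and 76860001. The side between 54470001 and 76860001 had 52, 35 and 37 counts. The locus at chr4:77020001-77040000 was joined to 54460001 by 43, 41 and 41 counts over 22.56 Mb and to the locus at 71610001 by 12 to 15 counts. A second set centred on chr4:59240001-59260000, with 4 partner loci at 0 dpa and 2 partner loci at each later time. Its strongest link, to chr4:33540001-33550000 over 25.71 Mb, had 100, 64 and 73 counts. The locus at chr4:75750001-75760000 was linked to both, by 16 and 16 counts to 33530001 at 0 and 1 dpa, with no pair called at 4 dpa, and by 17, 12 and 15 counts to 59240001. The loci of a triangle lay between 5.24 and 47.29 Mb apart.

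Contacts of at most 1 Mb formed dense blocks next to the boundary and toward the end of the arm. Next to the boundary, the bin at chr4:28330001-28340000 had the most called partners on the arm at 0 dpa, 11, with 7 at 1 dpa and 8 at 4 dpa. At both later times it shared the first place with chr4:76690001-76700000. All partners of the bin at 28330001 lay within 150 kb. The bin at chr4:28210001-28220000 had 9, 4 and 5 partners and the bin at chr4:28270001-28280000 had 8, 6 and 2. Near the end of the arm, the bin at chr4:76690001-76700000 had 7, 7 and 8 partners and the bin at chr4:76770001-76780000 had 6, 5 and 7. Bins at 28280001, with 8 partners at 0 dpa, at 76660001, with 8 at 0 dpa and 6 at 1 dpa, and at 76720001, with 6 at 1 dpa, shared the last place named. All of these bins lay in the windows of 28 to 29 or 76 to 77 Mb. Most anchor bins of the arm had a single partner, 68.0%, 71.8% and 69.4% at 0, 1 and 4 dpa, against 48.5%, 51.8% and 46.6% on the short arm.

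Median counts of the pairs of at most 1 Mb lay between 28 and 36.5 in all groups, while expected counts differed more. Within 28 to 29 Mb the median count was 31, 28.5 and 30 at 0, 1 and 4 dpa, from 72 Mb on 28, 30 and 34, and between 29 and 72 Mb 30, 36.5 and 35.5. The median expected count at 0 dpa was 9.45, 5.98 and 2.85 in these 3 groups in turn. The observed over expected counts followed the expected counts in reverse. Pairs within 28 to 29 Mb had a median observed over expected count of 3.45, 3.30 and 2.87 at 0, 1 and 4 dpa. Those of at most 1 Mb from 72 Mb on had 4.72, 5.08 and 4.24. The few between 29 and 72 Mb had 8.51, 11.1 and 8.46, from 12, 10 and 10 pairs. Singletons made up 6.25%, 10.7% and 17.9% of the pairs within 28 to 29 Mb and 33.3%, 39.2% and 31.8% of the short pairs from 72 Mb on. Over the whole arm, long pairs included, 39.4%, 43.9% and 42.7% of pairs were singletons, the highest of the 26, against 8.91%, 9.03% and 9.05% on the short arm, the lowest of the 26 at each time.

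Among pairs of at most 1 Mb called at all times, the highest ratio was held by the pair between chr4:29330001-29340000 and chr4:29490001-29500000, 160 kb apart. It had 67, 74 and 48 counts, which were 37.8, 40.3 and 22.0 times the expected count. The next named was chr4:77650001-77660000 with chr4:77670001-77680000, 20 kb apart, at 131, 152 and 116 counts, or 25.4, 32.5 and 19.0 times expected. Over 860 kb, chr4:76350001-76360000 and chr4:77210001-77220000 shared 30, 35 and 21 counts. Over 90 kb, chr4:29150001-29160000 and chr4:29240001-29250000 shared 53, 59 and 69 counts, or 21.2, 25.4 and 22.5 times expected. At 4 dpa its ratio was above that of the first pair. The order of pairs differed between lists, and other pairs exceeded some of those named in some lists. The count was highest at 1 dpa in 3 of these 4 pairs and at 4 dpa in the last.

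At the shortest span, long arm pairs had lower median counts and lower median expected counts than short arm pairs. For pairs 20 kb apart, the shortest span in the lists, the median expected count at 0 dpa was 8.21 over 46 long arm pairs, against 17.4 over 162 short arm pairs and 14.5 over the series. Their median observed count was 33 on the long arm, against 44 on the short arm. The median observed over expected count was therefore higher on the long arm, at 3.76 (3.29 to 4.27), against 2.59 on the short arm (2.53 to 2.69) and 2.84 over the series. At 1 dpa it was 3.76 (3.31 to 5.51) on the long arm, against 2.72 on the short arm. At 4 dpa it was 3.47 (2.88 to 4.17), against 2.39. Median counts at longer spans were not lower throughout: over 50 and up to 100 kb at 1 dpa, the median was 28 on the long arm, against 25 on the short arm. At 20 kb the long arm had the lowest median expected count and the highest median ratio of the 26 at each time. A pair must pass a limit on count and on FDR to be listed, so a low expected count requires a higher ratio of a called pair.

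Across regeneration, the number of long arm pairs at 1 dpa was 0.772 times that at 0 dpa (0.614 to 0.969), against 0.734 on the short arm and 0.658 over the series. The comparisons of 1 and of 4 dpa share the 0 dpa list and are given side by side. The long arm ranked first of the 26 in the 1 over 0 dpa ratio, with the others between 0.609 and 0.734. This rank is not matched for span. Among pairs of at most 1 Mb the ratio was 0.706 on the long arm (0.532 to 0.934), against 0.734 on the short arm. The long arm was thus not first among such pairs, though its interval includes the short arm value. At 4 dpa the number was 0.872 times that at 0 dpa (0.700 to 1.09), against 0.998 on the short arm and 0.95 over the series. There the long arm ranked 24th, and the ratio was 1 with the boundary at 30 Mb, which leaves out the block next to the boundary. Within 28 to 29 Mb, both later times had 0.583 times as many pairs as 0 dpa (0.352 to 0.949). From 72 Mb on, pairs of at most 1 Mb were 0.773 times as many at 1 dpa (0.525 to 1.13) and as many at 4 dpa, 66 at both times (0.700 to 1.43). Pairs over 1 Mb were 0.926 times as many at 1 dpa (0.617 to 1.39) and 0.981 times as many at 4 dpa (0.659 to 1.46). Over the series, pairs of at most 1 Mb were 0.653 times as many at 1 dpa and 0.946 times as many at 4 dpa, and both values lie within the intervals of the group next to the boundary. The intervals of these ratios treat the lists as independent, though the lists hold many of the same pairs. The depth of each list, on which the number of calls depends, is unknown.

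Most long arm pairs had a counterpart, a called pair with both anchors within 1 bin, at the other times. Of the 139 pairs at 1 dpa, 11 (7.91%, interval 4.02 to 13.7) had none at 0 dpa, against 62 of 642 (9.66%) on the short arm and 11.5% over all pairs of the series. Of the 157 pairs at 4 dpa, 18 (11.5%, 6.94 to 17.5) had none at 0 dpa, against 154 of 873 (17.6%) on the short arm and 20.5% over the series. These were the lowest percents of the 26 at both times, where the others ran from 9.34% to 15.1% at 1 dpa and from 14.8% to 26.9% at 4 dpa. For 1 dpa the long arm interval includes the series value, and for 4 dpa it lies below it. In the other direction, 30 of the 180 pairs at 0 dpa (16.7%, 11.5 to 22.9) had no counterpart at 1 dpa, and 30 had none at 4 dpa. The short arm had 23.8% and 19.2%, and the series 29% and 22.9%, of which the first lies above the long arm interval and the second within it. Neither later time had a counterpart of 18 long arm pairs of 0 dpa (10%), against 13.8% on the short arm and 16.8% over the series. Where a counterpart had to lie in identical bins, 17.3% of 1 dpa pairs on the long arm lacked one at 0 dpa, against 28.9% over the series, and at 4 dpa 23.6% did, against 41.7%.

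Pairs over 1 Mb recurred in identical bins more often than nearer pairs, on the long arm and over the series. Where a counterpart could lie within 1 bin, the percents lay closer together. They were then nearly equal on the long arm, while over the series pairs over 1 Mb still had the higher percent. Of 65 distinct long arm pairs over 1 Mb, 41 (63.1%, 50.2 to 74.7) were called in identical bins in all 3 lists, against 56 of 169 (33.1%, 26.1 to 40.8) of at most 1 Mb. On the short arm 354 of 1360 pairs of at most 1 Mb (26%) were. Over the series the percents were 38.9 over 1 Mb and 24.6 up to 1 Mb. With anchors allowed to differ by 1 bin, 42 of 54 long arm pairs over 1 Mb at 0 dpa (77.8%) had a counterpart at both later times, against 96 of 126 (76.2%) of at most 1 Mb. By the same rule, 69.0% of series pairs over 1 Mb had a counterpart at both later times, against 64.9% of those up to 1 Mb. Of the anchor bins of the long arm, 143 of 249 (57.4%) were used at all times, against 485 of 1051 (46.1%) on the short arm.

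The design asks which contacts are called in regenerating fins and not in uninjured ones. Of the long arm pairs of this kind, 2 of 11 at 1 dpa and 7 of 18 at 4 dpa spanned over 1 Mb. They were 4% and 13.2% of long arm pairs over 1 Mb, against 13.6% and 21.1% over the series. Those named at 1 dpa, limited to counts of at least 20 at that time, were all 20 kb apart. Bins chr4:74730001-74740000 and chr4:74750001-74760000 shared 21 counts, 4.53 times expected (2.81 to 6.93). Bins chr4:74030001-74040000 and chr4:74050001-74060000 shared 24 counts at 1 dpa and 34 at 4 dpa, or 3.76 and 3.84 times expected, and this pair is named at both times. The others, at 77330001 and 28420001, had 24 and 25 counts. At 4 dpa, the pair between chr4:29300001-29310000 and chr4:61680001-61690000, 32.38 Mb apart, had 18 counts at 1 dpa and 23 at 4 dpa, 22.8 times expected at 4 dpa (14.4 to 34.2). Bins chr4:77590001-77600000 and chr4:77610001-77620000 shared 40 counts at 1 dpa and 56 at 4 dpa. Called at 4 dpa alone, chr4:76360001-76370000 and chr4:76380001-76390000 shared 36 counts, 3.59 times expected. A pair that is not called has no value, so its count at 0 dpa is unknown rather than low.

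Of the 18 pairs at 0 dpa with no counterpart later, 6 spanned over 1 Mb and are not among those named. The named ones, limited to counts of at least 20, all lay between 72 and 74 Mb. They joined chr4:72100001-72110000 to chr4:72140001-72150000, with 21 counts and 5.63 times expected (3.48 to 8.60), and chr4:72090001-72100000 to chr4:72160001-72170000, with 21 counts and 5.37 times expected. A further 2, starting at 73730001 and 73690001, had 28 and 27 counts over 20 kb. The window of 72 to 73 Mb had 12, 4 and 12 anchor bins at 0, 1 and 4 dpa, and that of 73 to 74 Mb had 25, 12 and 19.

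Pairs kept in the same bins had lower observed over expected counts at 4 dpa than at 0 dpa, and on the long arm the median ratio was the lowest of the 26. The median ratio of observed over expected counts, 4 over 0 dpa, was 0.811 over 120 long arm pairs (0.790 to 0.857), against 0.915 over 506 short arm pairs (0.893 to 0.939) and 0.899 over 15730 pairs of the series. Relative to the series it was 0.902. The others of the 26 ran from 0.877 on chromosome 1 to 0.922. Raw counts gave the same rank: the median 4 over 0 dpa count ratio of kept pairs was 0.908 on the long arm, against 1.08 on the short arm and 1.08 over the series, with the others of the 26 between 1.05 and 1.11. A scale factor common to a list leaves these ranks as they are. The ranks are not matched for span: pairs over 1 Mb were 44 of the 120 long arm pairs, against 451 of 15730 over the series. Over the series the median count ratio was 0.933 over 1 Mb, against 1.08 up to 1 Mb. Of the 120 long arm pairs, 25 had a 4 over 0 dpa ratio of observed over expected counts above 1. Pairs must be called at both times to be compared, so pairs with the largest changes may be missing.

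The median was below that of the series in each span class given here and in each group of the arm. The long arm interval included the series value for pairs of at most 50 kb and for pairs over 1 Mb. So did that of the group between 29 and 72 Mb, against 0.898 for series pairs of at most 1 Mb. For pairs of at most 50 kb the median ratio was 0.810 over 50 long arm pairs (0.760 to 0.877), against 0.9 on the short arm and 0.873 over the series. Over 50 and up to 200 kb it was 0.790 over 22 pairs (0.733 to 0.844), against 0.937 and 0.909. Over 1 Mb it was 0.865 over 44 pairs (0.786 to 0.998), against 0.930 over the series, whose interval (0.889 to 0.964) overlaps it. Within 28 to 29 Mb it was 0.753 over 20 pairs (0.718 to 0.814). Of pairs up to 1 Mb between 29 and 72 Mb it was 0.770 over 10 pairs (0.582 to 1.06), and from 72 Mb on 0.811 over 46 pairs (0.790 to 0.877). The expected count of kept pairs of at most 1 Mb had a median ratio, 4 over 0 dpa, of 1.18, against 1.19 on the short arm and 1.20 over the series. Their observed count had a median ratio of 0.945, against 1.08 on the short arm and 1.08 over the series.

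At 1 dpa the long arm lay at the other end of the ranking. The median ratio, 1 over 0 dpa, was 0.971 over 115 long arm pairs (0.925 to 1.01), against 0.948 over 437 short arm pairs and 0.944 over 13312 pairs of the series. It was the highest of the 26, where the others ran from 0.926 to 0.962. The long arm interval includes the series value. This rank is not matched for span either. Up to 1 Mb the median was 0.991 over 70 long arm pairs (0.955 to 1.04), against 0.944 over the series. Over 1 Mb it was 0.929 over 45 pairs (0.846 to 1.00), below the 0.953 of the series. Within 28 to 29 Mb it was 0.920 over 21 pairs (0.819 to 1.01). By raw counts the long arm ranked 4 of 26, at 0.923, against 0.913 on the short arm.

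**Figure D5:**
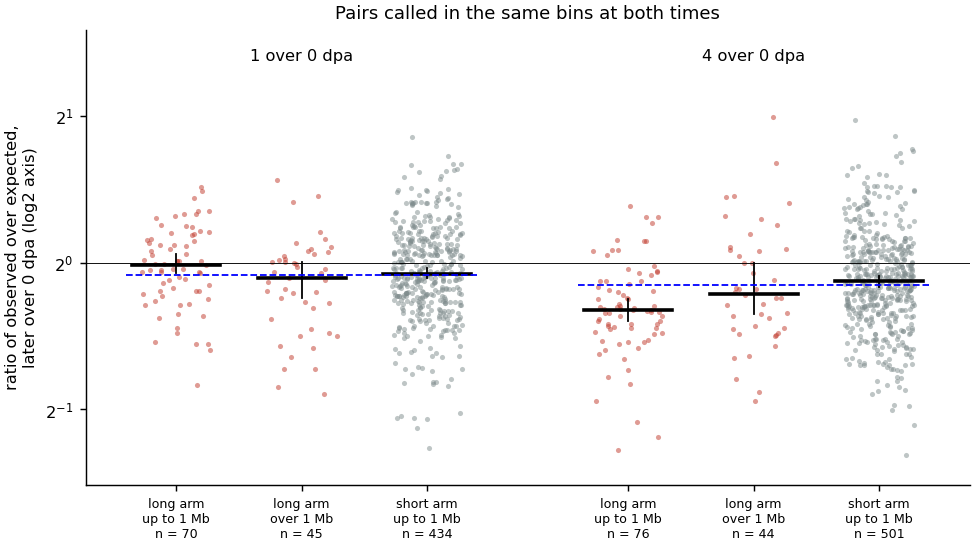
Ratio of observed over expected counts, later over 0 dpa (log2 axis), of pairs whose bins were called at 0 dpa and at the later time, for 1 over 0 dpa (left) and 4 over 0 dpa (right); each point is a pair, thick bars are medians, thin bars their 95% intervals and dashed lines the median over the series. At 4 over 0 dpa the median of long arm pairs of at most 1 Mb is 0.801, against 0.915 for short arm pairs of at most 1 Mb.

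Few long arm pairs passed the size limit of 1.5-fold. At 1 dpa, 0 of 115 were at least 1.5-fold higher than at 0 dpa and 7 (6.09%) at least 1.5-fold lower, against 1.74% and 6.87% over the series. At 4 dpa, 2 of 120 (1.67%) were higher and 15 (12.5%) lower, against 1.93% and 9.9% over the series. The long arm intervals include the series share in all 4 cases: at 1 dpa they were 0 to 3.16% for higher and 2.48 to 12.1% for lower pairs, and at 4 dpa 0.202 to 5.89% and 7.17 to 19.8%. Other scalings shifted this split. Raw counts divided by the summed counts of the kept pairs, an alternative chosen after the lists were seen, gave 4 higher and 3 lower pairs on the long arm at 1 dpa, while 3 were higher and 12 were lower at 4 dpa. Division by the series median gave 2 higher against 5 lower pairs at 1 dpa, while at 4 dpa there were 4 higher against 9 lower. Raw counts divided by list totals gave 57 higher and 0 lower pairs at 1 dpa, and 5 of each at 4 dpa; those totals sum the called pairs and move with how many were called.

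Among pairs called at all times, the smallest 4 over 0 dpa ratio was that of the pair between chr4:76350001-76360000 and chr4:76590001-76600000, 240 kb apart. It had 32, 31 and 16 counts at 0, 1 and 4 dpa, a ratio of 0.412 (0.211 to 0.774). The pair between chr4:28150001-28160000 and chr4:28170001-28180000, nearest the boundary, had 89, 65 and 67 counts. Its ratio was 0.663 (0.474 to 0.923) at 1 dpa and 0.439 (0.315 to 0.609) at 4 dpa. Its expected count was 6.99 at 4 dpa, against 4.08 at 0 dpa. Bins chr4:77640001-77650000 and chr4:77670001-77680000 shared 35, 44 and 24 counts, a 4 dpa ratio of 0.471 (0.268 to 0.814). As extremes picked out of 97 pairs called at all times, these pairs carry intervals that do not allow for the picking.

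The largest 4 over 0 dpa ratios belonged to long pairs of low count. The pair between chr4:70880001-70890000 and chr4:76300001-76310000 had 14, 14 and 28 counts, a ratio of 1.99 (1.01 to 4.09). The neighbouring pair, from 70870001 to 76300001, had 13, 13 and 21, and both adjoin the pair of 135, 156 and 140 counts described above. Over 16.52 Mb, chr4:41110001-41120000 and chr4:57630001-57640000 shared 19, 26 and 26 counts. At 1 dpa the largest ratio was 1.48 (0.887 to 2.51), for the pair 47.29 Mb apart described above. Bins chr4:76660001-76670000 and chr4:76710001-76720000 shared 51, 64 and 46 counts, a 1 dpa ratio of 1.40 (0.956 to 2.07), and the pair between 28220001 and 28330001 had 18, 26 and 23. The smallest 1 over 0 dpa ratio was 0.539 (0.260 to 1.07), for the pair between chr4:33540001-33550000 and chr4:59240001-59250000 with 26, 14 and 20 counts. The pair between 29320001 and 30550001 had 29, 16 and 21 counts, and the pair between 73380001 and 73400001 had 52, 29 and 49, a ratio of 0.561 (0.343 to 0.9). Of these 1 dpa extremes only the last has an interval that leaves out 1.

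Summed over the 97 pairs called at all times, long arm counts were 4390 at 0 dpa, 4052 at 1 dpa and 3880 at 4 dpa. On the short arm, 357 such pairs summed to 13821, 12557 and 14553. The 4 over 0 dpa ratio of these sums was 0.884 on the long arm, against 1.05 on the short arm, while the 1 over 0 dpa ratio was 0.923, against 0.909. The long arm pairs over 1 Mb among them, 41, summed to 1850, 1655 and 1565, and those of at most 1 Mb, 56, to 2540, 2397 and 2315. Both kinds thus had their lowest summed counts at 4 dpa. The short arm total was highest there, but 354 of its 357 pairs spanned at most 1 Mb. Its 3 pairs over 1 Mb summed to 80, 67 and 71. Over the series, pairs over 1 Mb kept at 0 and 4 dpa had a ratio of summed counts of 0.903, 4 over 0 dpa. Divided by the summed expected counts, however, both arms were lowest at 4 dpa. The long arm then had 10.9, 10.7 and 8.27 at 0, 1 and 4 dpa, and the short arm 4.51, 4.26 and 4.02. These values are not matched for span. Among pairs of at most 1 Mb the long arm had 7.07, 7.11 and 5.42, against 4.49, 4.24 and 4.00 on the short arm.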

How the data were processed

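HiCAR was performed on 9 samples, 3 pools of fins per time point. The values used are 3 lists of called interactions at 10 kb, 1 per time point, whose time was taken from the list names, which match the sample titles. Per the file headers, the authors deposited for each pair a contact count, an expected count, an FDR (a q-value), a cluster with its size and summit, and a −log10 p of the cluster. BWA and danRer11 are named per the submitters' processing notes. Pooling, the interaction caller, its background model and the BWA version were not given in the sources used here.

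Members were taken by position. Ratios of counts have exact conditional binomial intervals, percents exact Clopper-Pearson intervals, observed over expected ratios exact Poisson intervals and medians order-statistic intervals. Matching and intervals were tested on simulated data. Span is the distance between bin starts. Chromosome lengths are the end of the last called bin (a lower bound), which gives 50.09 Mb for the long arm. No per-sample columns were left unused. Python 3.11.15, pandas 2.3.3 and scipy 1.17.1 were used.

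Named pairs are the 4 longest and the 4 with the highest observed over expected ratio up to 1 Mb (count of at least 20, 1 per cluster) among pairs called at all times, the 3 largest and 3 smallest ratios between times, and the 4 highest ratios (count of at least 20, 1 per cluster) among pairs without a counterpart at 0 dpa, or at either later time; named anchors are the 3 with the most partners per list. Members and rules were chosen with earlier results of these data known. Planned gene lists were not run, since no danRer11 annotation was used. Alternatives tried are stricter calling limits, other boundaries, matching rules and scalings.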

Additional observations from a re-analysis of the deposited data

Results flagged for a closer look

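A signal was found in pairs that the comparison leaves out, those that join the long arm to the short arm of chromosome 4. There were 2 in each list, of 1057, 783 and 1032 chromosome 4 pairs at 0, 1 and 4 dpa, in the same bins every time. The pair between chr4:21140001-21150000 and chr4:73570001-73580000, 52.43 Mb apart, had 25, 28 and 28 counts. The pair between chr4:2250001-2260000 and chr4:71990001-72000000, 69.74 Mb apart, had 22, 22 and 19 counts. The expected counts were close to 1, and the counts lie above the 12 of the weakest called pairs. These pairs had no replicate values, and no other called pair crossed the boundary.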

How the results depend on the processing

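No paired analysis was possible because the lists hold no values per replicate, so the replicate block and leaving out each replicate were not run. Precision is limited by 1 list per time, by the unknown depth and by the few kept pairs. Of 210 alternative values for 27 results, 124 moved by less than their interval (counts by less than 1.5 times) and 86 moved by more. A turn of direction could be recorded only for ratios whose main interval left out 1, and 0 of those turned. Counts, percents and medians of span or of observed over expected could not be recorded as turned. The 1 dpa split of higher and lower pairs under list totals, given below, was thus recorded only as moved. Times are 0, 1 and 4 dpa in that order unless named. With FDR of at most 0.0001, pair density of the long over the short arm was 0.147, 0.164 and 0.128, and at 0 and 4 dpa observed over expected had a median of 10.6 and 9.69, with the median span 95 and 140 kb and the percent over 1 Mb 38.0 and 43.1. With counts of at least 20, the median span at 0 and 1 dpa was 40 and 50 kb, 21.8% of 0 dpa pairs spanned over 1 Mb, 4 kept pairs were lower at 1 dpa and 0 higher at 4 dpa. Without singletons there were 109, 78 and 90 pairs, the density ratio was 0.0764, 0.0747 and 0.0634, the median observed over expected count 4.28, 5.31 and 4.37, and the percent over 1 Mb 12.8, 23.1 and 20. The 0 dpa median span was then 40 kb, 22.9% of 0 dpa pairs had no 1 dpa counterpart, and 3 and 4 kept pairs were lower at 1 and 4 dpa. With cluster summits alone there were 102, 86 and 98 pairs, the density ratio was 0.232, 0.256 and 0.225, the median observed over expected count 12.1, 13.8 and 10.5, the median span 160, 200 and 150 kb and the percent over 1 Mb 44.1, 45.3 and 42.9. Of summits, 26.5% and 23.5% of those at 0 dpa had no counterpart at 1 and 4 dpa, and 20.4% of those at 4 dpa had none at 0 dpa. With spans of at most 1 Mb there were 89 and 104 pairs at 1 and 4 dpa, the density ratio was 0.081, 0.0779 and 0.067, the median observed over expected count 4.2, 4.71 and 4.12 and the median span 30 kb each time, with 2 kept pairs lower at 1 dpa and 0 higher at 4 dpa. With the boundary at 30 Mb the density ratio was 0.0785, 0.0886 and 0.0806, and 0 dpa had 117 pairs, a median observed over expected count of 10.6 and 40.2% over 1 Mb. With identical bins required, 17.3% of 1 dpa and 23.6% of 4 dpa pairs had no 0 dpa counterpart, and 36.1% and 33.3% of 0 dpa pairs had none at 1 and 4 dpa. Division by the series median gave median ratios of 1.03 and 0.902 at 1 and 4 dpa, 2 and 4 higher pairs, and 9 lower pairs at 4 dpa. Raw counts over list totals gave 1.49 and 0.958, 57 and 5 higher and 0 and 5 lower pairs. Raw counts over the total of kept pairs, chosen after seeing the data, gave 1.04 and 0.858, with 4 higher and 3 lower pairs at 1 dpa. The 1 over 0 dpa median of kept pairs, 0.971 with an interval that includes 1, thus lay above 1 under all 3 scalings, while that of 4 over 0 dpa was below 1, with an interval that includes 1 for list totals (0.905 to 1.06) and not for the other 2. The cause of these shifts was not tested.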
